A study of Mus musculus with 23 samples.

Results

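Villus-side epithelial cells of newborn mice were compared at postnatal day 6 (P6) and postnatal day 3 (P3). The comparison rests on 2 P6 libraries and 3 P3 libraries, which are 5 of the 23 libraries of the series and were chosen by their labels for age and cell population alone. All 5 were made from the medial small intestine of CD1 mice. These are outbred, and the labels name no engineered allele and no treatment. EDTA-released epithelium was sorted by antibodies, and the cells that stained for the epithelial surface protein Epcam but not for CD44, a surface protein of crypt cells, carry the label villus. The Epcam-positive, CD44-positive cells of the same ages, labelled crypt, gave 3 libraries at each age and serve below as the comparison. Poly(A) RNA was sequenced from each sample. Whether a replicate stands for 1 animal or for a pool is not given in the sources used here, so p-values measure only the spread between libraries, which may be technical.

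The villus epithelium of a suckling mouse consists mainly of enterocytes that absorb milk. These cells take up milk fat, package it into chylomicrons with apolipoproteins, and in the neonate also engulf milk proteins into lysosomes. Their energy comes largely from mitochondria, where the respiratory chain complexes I to IV pass electrons to oxygen and complex V, the ATP synthase, makes ATP. Most subunits of these complexes are encoded in the nucleus and a few in the mitochondrial genome. Stem cells lie between the villi and, as crypts take shape after birth, at the crypt base, so the separation of villus from crypt cells depends on the sort.

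The 5 libraries held 24857328 to 31948981 counts in genes. They differed in a property that runs through every result below: the mean GC content of the transcripts counted was 46.74%, 45.93% and 47.16% in P3 libraries 1, 2 and 3, and 44.58% and 44.88% in P6 libraries 1 and 2. The groups did not overlap in it. The villus libraries of P0 (49.81% ± 0.176, SD, n = 3) and of P10 (49.95% ± 0.0462, SD, n = 3) both lay above, so it did not change in 1 direction with age. Reads outside any gene made up 12.1% and 13.3% in the P6 libraries against 7.62% to 9.49% at P3, and mitochondrially encoded genes held 9.57% and 10.3% against 9.11% to 11.4%. The correlation of log2 levels over genes was 0.985 between the P6 libraries, 0.977 to 0.986 among the P3 libraries and 0.918 to 0.973 between ages. The age, the P6 samples and the shift in GC content cannot be told apart by this design.

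The villus label was checked against marker genes. Levels are given as CPM, counts scaled to a library of 1000000. A list of 14 enterocyte genes summed to 43400 to 51700 CPM at P3 and to 16500 and 21600 at P6, and all 14 were detected. Epcam itself stood at 1726, 1661 and 1623 CPM at P3 and at 1744 and 1759 at P6 (log2 change 0.07, SE 0.158, adjusted p = 0.75). Its values hardly differed between ages as deposited, but with the adjustment for GC content and length described below it passed the test as higher (0.57, adjusted p = 0.0126). Markers of cells that should be absent were low: 16 mesenchyme and smooth muscle genes summed to 5.79 to 10.9 CPM at P3 and 7.46 to 8.73 at P6, and erythroid genes to at most 1.86 CPM, with 2 of the 7 listed at 0 in all 5 libraries. Immune cell markers summed to 69.4 to 95.1 CPM at P3 and 14.8 to 28 at P6 (1 of 22 at 0), and pancreas and liver genes to 99.4 to 156 and 37 to 46.2 (1 of 15 at 0). The part of these cells in the results was not tested. In sorted bulk samples, fewer cells of a type and less RNA per cell cannot be told apart.

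Of 16535 genes tested by edgeR's quasi-likelihood test, 3585 were called higher at P6 (21.7%) and 4368 lower (26.4%) at an adjusted p below 0.05. These calls followed GC content closely. Across genes, which are not independent replicates, Spearman's correlation of the log2 change with transcript GC content was -0.688 over the 16329 genes with a GC value. Sorted by GC content into 5 groups of about equal size, genes had a median log2 change from 0.89 in the group with the lowest GC content to -1.53 in the one with the highest. When the same model carried offsets fitted as a spline in transcript GC content and length, the correlation was -0.143 and the 5 medians lay between -0.12 and -0.49. The split of calls moved with it, to 949 higher (5.74%) and 3302 lower (20%), and the median over all genes moved from -0.07 to -0.21. When the library scaling was recomputed after the offsets, a choice made after seeing the data, the split was 1633 higher and 2333 lower.

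**Figure D1:**
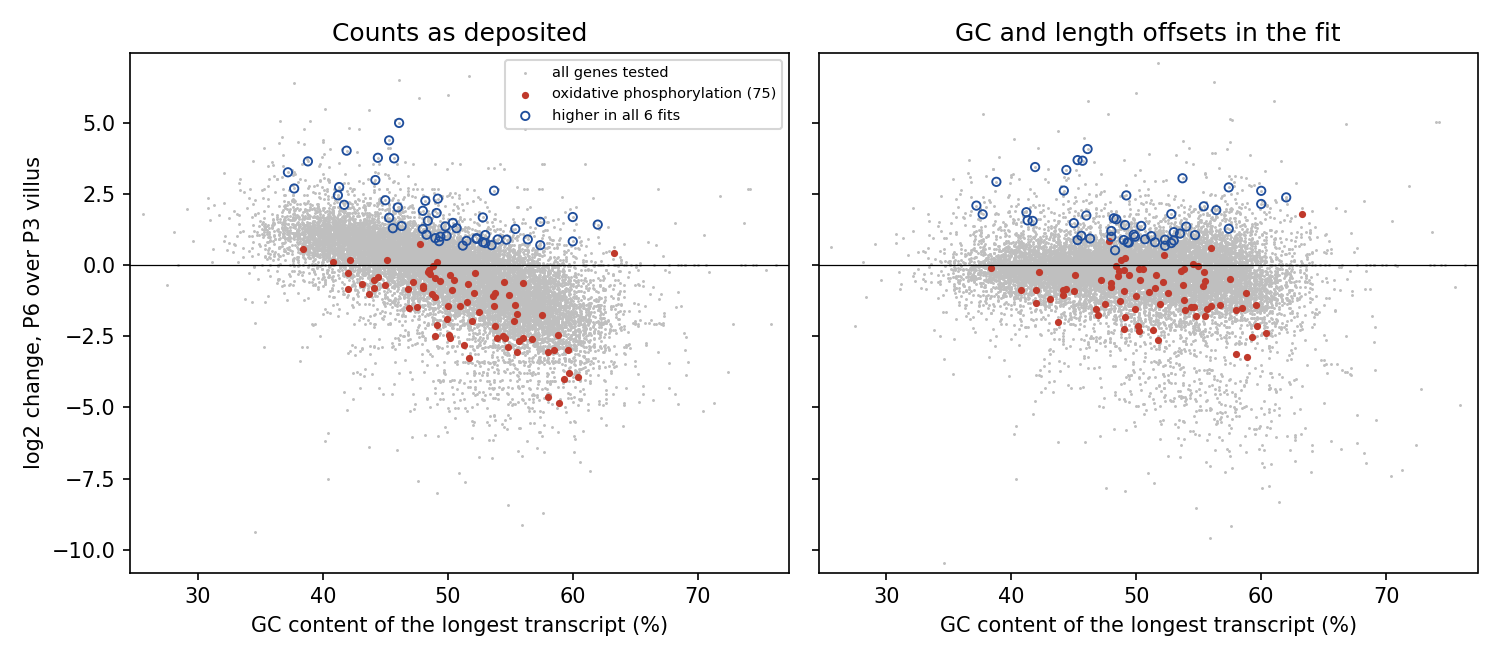
Log2 change from P3 to P6 in villus (vertical axis) against the GC content of each gene's longest transcript in percent (horizontal axis), from the counts as deposited (left) and with GC and length offsets (right). Grey points are all genes with a GC value, red points the 75 nuclear genes of oxidative phosphorylation, blue rings the genes higher in all 6 fits. The Spearman correlation was -0.688 on the left and -0.143 on the right, where the trend is weaker but still falls.

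Genes were therefore described as held only where they passed in the same direction in 6 fits: with and without the offsets, and in both cases with both P6 libraries, with P6 library 1 alone and with P6 library 2 alone. This rule kept 57 genes higher (0.345%) and 1296 lower (7.84%). Of these, 22 of the higher genes (0.133% of all tested) had a GC content above the median of 49.9% and 192 of the lower genes (1.16%) one below it, so they moved against the trend. In the 5 groups from lowest to highest GC content, genes held lower numbered 15, 86, 229, 380 and 577. As a set they thus still followed GC content. Those held higher numbered 7, 11, 15, 11 and 6. Single P6 libraries gave calls as deposited of 2783 higher (16.8%) and 4041 lower (24.4%) for library 1, and 1337 (8.09%) and 3047 (18.4%) for library 2. Leaving out P6 library 1 thus cut the higher calls by more than 1.5 times. In all 1353 held genes both P6 libraries lay on 1 side of all P3 libraries in CPM. This is no mark of a single gene, since the same held for 31.6% of all tested genes in the higher direction and 34.7% in the lower, and where the ages are said below not to overlap it is to be read against these shares. A stricter count, of genes held under every one of 9 other ways of processing, was 9 higher (0.0544%) and 265 lower (1.6%).

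The coding sequences of 3 held genes show what moving against the trend means. The first 120 coding bases of the principal transcript are given 5′ to 3′ from the GENCODE M21 annotation, with G and C in capitals. Hnrnpa0 was higher at P6, where GC-rich transcripts as a whole were lower, and Ndufs4 and Psma2 were lower at P6, where GC-poor transcripts as a whole were higher.
Hnrnpa0: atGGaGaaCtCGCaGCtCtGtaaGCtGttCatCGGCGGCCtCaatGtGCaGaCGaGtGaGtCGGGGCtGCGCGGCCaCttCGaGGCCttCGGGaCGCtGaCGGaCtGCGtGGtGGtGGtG
Ndufs4: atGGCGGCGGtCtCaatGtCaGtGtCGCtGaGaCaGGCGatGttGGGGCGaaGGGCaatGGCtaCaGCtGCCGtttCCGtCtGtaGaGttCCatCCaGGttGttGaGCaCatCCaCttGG
Psma2: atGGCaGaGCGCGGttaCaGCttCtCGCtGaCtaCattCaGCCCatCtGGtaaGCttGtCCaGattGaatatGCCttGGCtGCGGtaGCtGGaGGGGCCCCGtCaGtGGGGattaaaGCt
Over the whole coding sequence the GC content is 71.9% in Hnrnpa0 (915 bases), 46.3% in Ndufs4 (525 bases) and 48.1% in Psma2 (702 bases), against a median of 53.1% over tested genes. The stretches shown hold 63.3%, 56.7% and 55%, so in the GC-poor pair the start is richer than the rest.

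Nuclear genes of oxidative phosphorylation had more members lower at P6 than any other of the 43 lists drawn up. All 75 listed subunits were tested, 59 were called lower and 0 higher, with a median log2 change of -1.12, against 26.4% lower and a median of -0.07 over all genes. With the offsets 53 were lower and 2 higher, with a median of -0.90. Held members numbered 42 of 75 (56%), and 23 of them were held under every setting. Complexes were assigned by gene name. Held lower by this assignment were 25 of 36 genes of complex I, 1 of 4 of complex II and 5 of 9 of complex III. For complexes IV and V the counts were 5 of 10 and 6 of 15. The gene of cytochrome c, Cycs, which carries electrons to complex IV, was not called as deposited (0.11, adjusted p = 0.762) and was lower with the offsets (-0.87, adjusted p = 0.00339). With P6 and P3 villus libraries alone in the fit the held members numbered 25. Leaving out a P6 library could not lower the count, since the rule then keeps only fits that it already contains.

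The subunits included examples from each end of the chain. Uqcrh, the hinge protein of complex III, stood at 459, 430.1 and 507 CPM at P3 and at 109 and 140.3 at P6 (log2 change -1.90, adjusted p = 1.13e-05). Cox4i1, a core-associated subunit of cytochrome c oxidase, stood at 298, 191 and 389 CPM and then at 29.5 and 40.8 (-3.06, adjusted p = 1.13e-05). In both genes every P6 library lay below every P3 library. Atp5d, a stalk subunit of the ATP synthase, stood at 56.6, 31.4 and 96.3 CPM at P3 and at 2.52 and 5.15 at P6 (-4.01, adjusted p = 1.72e-05), and Uqcr11, a small subunit of complex III, at 14.1, 6.49 and 25.4 CPM and then at 0.486 and 0.589 (-4.84, adjusted p = 3.16e-05). Of the complex I genes that the naming rule gave, Ndufa11 stood at 13.4, 4.50 and 20.9 CPM and then at 0.265 and 0.785 (-4.65, adjusted p = 2.14e-05), and Ndufa2 at 28.99, 14.5 and 38.8 and then at 2.56 and 3.24 (-3.25, adjusted p = 2.22e-05). In these genes too the ages did not overlap. With the offsets the changes of Uqcrh, Cox4i1, Atp5d and Uqcr11 were -1.55, -1.57, -2.54 and -3.22. Those 4 genes were held under every setting, but Cox4i1, Atp5d and Uqcr11 are GC-rich (coding GC content of Cox4i1 53.5%), and in all 4, as in Ndufa11 and Ndufa2, the 3 P3 libraries stand in the order of their GC content.

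The 21 subunits whose transcript and coding GC content both lay below the median of tested genes were the members for which the trend runs the other way. Over all 5583 genes of this class, 2625 were called higher and 258 lower, with a median log2 change of 0.58. Among the 21 subunits 0 were called higher and 10 lower, with a median of -0.42, and 7 were held lower (33.3%, against 2.06% of the class). All 7 have Nduf names and were counted with complex I, the NADH dehydrogenase that feeds electrons into the chain. They are Ndufa1, Ndufa4, Ndufa9, Ndufb3, Ndufb5, Ndufs4 and Ndufs5. Ndufa4 was counted there by its name alone, although its protein is placed in complex IV.

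Ndufa1, a small membrane-arm subunit, stood at 40.97, 43.7 and 47.4 CPM at P3 and at 16.1 and 15.5 at P6 (log2 change -1.48, SE 0.167, adjusted p = 1.13e-05). It was -1.38 with the offsets, and -1.53 and -1.61 with P6 library 1 or 2 alone. The P3 values lie close together, and both P6 values are less than the lowest of them by far more than their own spread. Ndufs4, needed for the assembly of complex I, stood at 191, 211 and 182 CPM and then at 126 and 123 (-0.65, adjusted p = 0.000774; -1.18 with the offsets). Ndufa4 stood at 418, 455 and 377 CPM and then at 269 and 207 (-0.81, adjusted p = 0.00053). Ndufa1 was held under every setting, whereas Ndufs4 and Ndufa4, singled out after their values were seen along with Uqcrh and Cox4i1, were not held without the filter on low counts or with P3 and P6 villus libraries alone in the fit. Not every GC-poor subunit moved: Ndufc2 had a log2 change of -0.05, Ndufs1 of 0.16, Uqcrb of 0.17 and Cox7c of 0.57, none called as deposited. With offsets from coding sequence Ndufs1 was lower (-0.68, adjusted p = 0.00285), and with GC offsets alone Uqcrb was lower (-0.73, adjusted p = 0.00241).

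**Figure D2:**
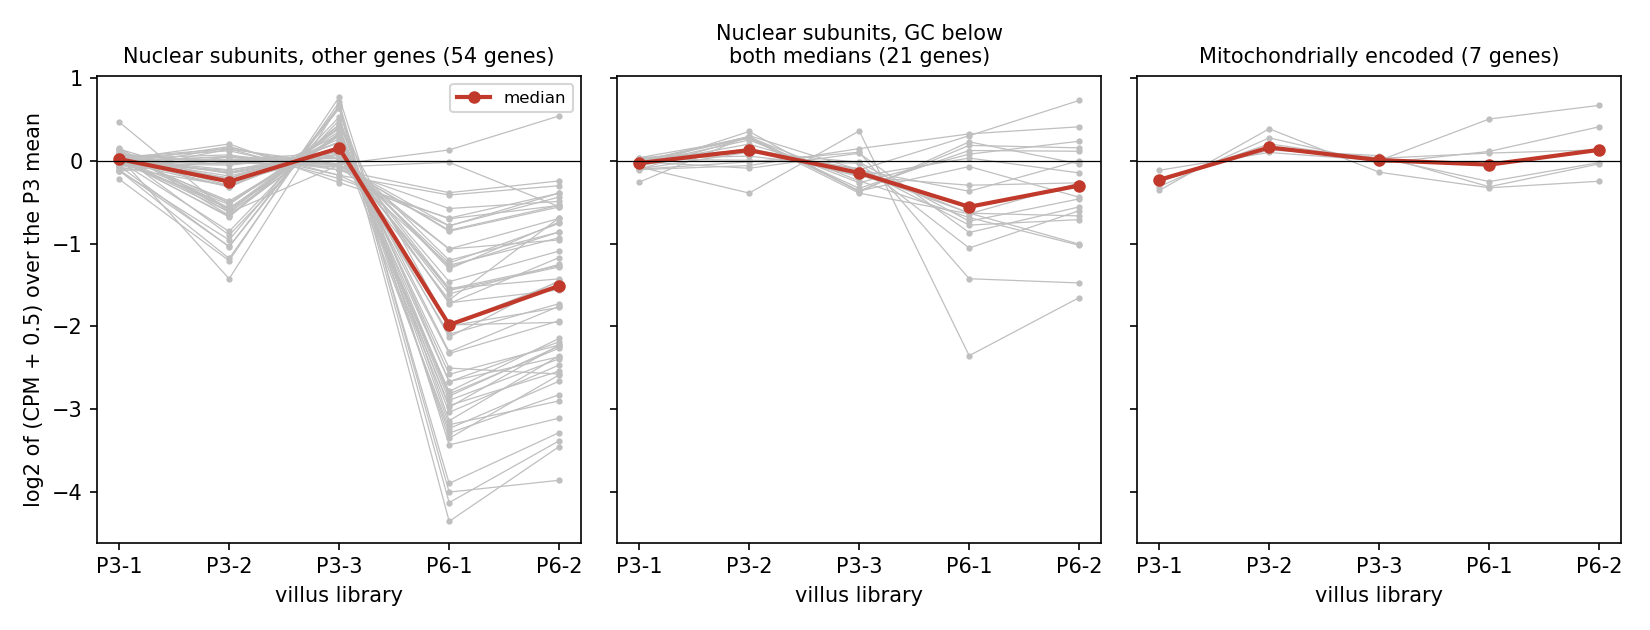
Log2 of CPM plus 0.5 in each villus library relative to the P3 mean (vertical axis), for nuclear oxidative phosphorylation genes by GC class and for mitochondrially encoded genes. Grey lines are genes and red lines medians; the median of the 21 GC-poor subunits was -0.56 and -0.30 in the P6 libraries, that of the other 54 was -1.98 and -1.51, and that of the 7 mitochondrial genes was -0.04 and 0.13.

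Length also entered. Among genes whose mean log2 CPM was 3 or more and whose transcripts were under 1500 bases, 36.8% of those with GC content above the median and 12.9% of those below it were held lower. For oxidative phosphorylation these shares were 73.3% (22 of 30) and 35.3% (6 of 17). Among longer transcripts the shares over all genes were 17.8% and 2.26%, and in the family 5 of 10 (50%) and 4 of 10 (40%). The family's share was thus the higher one in each of the 4 classes.

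The 7 mitochondrially encoded genes that could be tested, all of the same respiratory complexes, had 0 calls as deposited and a median log2 change of 0.05. mt-Nd1, a complex I subunit, stood at 22110, 30420 and 26530 CPM at P3 and at 25540 and 28960 at P6, and mt-Nd2 at 8963, 13500 and 10910 and then at 12050 and 14810. For both the ages overlapped. These transcripts are GC-poor, 37.6% in mt-Nd1 and 35.7% in mt-Nd2, and with the offsets the list's median was -0.73 with 4 of 7 called lower, and 6 were lower with GC offsets alone and 1 with scaling after the offsets, so that the direction and the count depend on the adjustment. The 6 other listed mitochondrial genes were not tested, and 5 of them stood at 0 in all 5 libraries.

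Further families of mitochondrial and protein-handling genes, which were picked by their names after values were seen, as was Psma2, also had more members lower than higher. Of 78 mitochondrial ribosome genes 55 were lower and 3 higher, with a median of -0.77, and 29 were held lower (37.2%, against 7.84% of all genes). Among their 27 GC-poor members 14 were lower and 2 higher, and 8 were held (29.6%). Mrps16, a small-subunit protein, stood at 22.2, 17.5 and 28.97 CPM at P3 and at 3.75 and 5.003 at P6 (log2 change -2.39, adjusted p = 1.56e-05), and was held under every setting. Of 39 proteasome genes 23 were lower, 3 were higher and 15 were held lower (38.5%, against 7.84% of all genes). Of their 21 GC-poor members 6 were lower and 3 higher, with a median of -0.16, and 3 were held (14.3%, against 2.06% of GC-poor genes). Among these 3, Psma2, an outer-ring subunit of the proteasome core, stood at 251, 234 and 219 CPM at P3 and at 139.8 and 157 at P6 (-0.66, adjusted p = 0.000585; -1.73 with the offsets). Its P6 libraries lay below all P3 libraries, but it was not held without the filter on low counts or with P3 and P6 villus libraries alone in the fit.

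Cytosolic ribosomal protein genes had 38 of 80 members lower and 2 higher, with a median of -0.95, and 18 held lower (22.5%, against 7.84% of all genes), of which 4 under every setting and 5 with P3 and P6 villus libraries alone in the fit. Rplp0, a stalk protein of the large subunit, stood at 117, 69.3 and 184 CPM at P3 and at 31.6 and 34.5 at P6 (-1.90, adjusted p = 0.000182). Rpl18 stood at 24.7, 8.64 and 42.7 CPM and then at 0.839 and 1.47 (-4.47, adjusted p = 3.37e-05). In each gene P3 library 2 was the lowest P3 library. These genes have many near-identical processed copies, and how reads with several alignments were treated is not given in the sources used here, so their levels are uncertain.

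The naming rule gave further genes lower at P6 by size of change. Dad1, a subunit of the enzyme that attaches sugar chains to new proteins, stood at 59.8, 37.8 and 76.4 CPM at P3 and at 8.35 and 12.9 at P6 (log2 change -2.45, adjusted p = 1.56e-05; -2.98 with the offsets). Erp29, a chaperone of the endoplasmic reticulum, stood at 80.9, 58.3 and 97.96 CPM and then at 17.2 and 23.7 (-1.95, adjusted p = 5.77e-05; -2.79 with the offsets). Their longest transcripts are GC-poor (46.8% and 46.1%) but their coding sequences are not (56.3% and 56.6%), so whether they moved against the trend depends on the measure. Cst6, a protease inhibitor, stood at 76.1, 37.6 and 67.3 CPM and then at 6.31 and 10.4 (-2.86, adjusted p = 3.73e-05), and Prap1, a secreted acidic protein of the gut, at 359, 150.5 and 447 and then at 16.6 and 29.7 (-3.78, adjusted p = 5.12e-05). All 4 had P3 library 2 as the lowest of P3, no overlap between ages, and were not held in the fit of P3 and P6 libraries of both populations.

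Several abundant villus genes of low GC content were lower at P6, against the trend. Spink1, Plac8, Fabp1 and Fabp2 were singled out after their values were seen, unlike Calml4 and S100g, which the naming rule gave. Spink1, an inhibitor of trypsin, stood at 1766, 1774 and 1629 CPM at P3 and at 468 and 599.9 at P6 (log2 change -1.69, SE 0.265, adjusted p = 5.45e-05; -1.90 with the offsets). Plac8, a small cysteine-rich protein, stood at 2045, 1988 and 2148 CPM and then at 735 and 758 (-1.46, SE 0.216, adjusted p = 3.35e-05; -1.40 with the offsets). For both genes the 3 P3 libraries were nearly level, the P6 libraries lay well below them, and the call was held under every setting and with each library left out. Spink1 had a mean of 342 CPM ± 69.1 (SD, n = 3) in P0 villus and 294 ± 47.1 (SD, n = 3) in P10 villus, so P3 was the highest of the 4 ages. Plac8 stood at 1058 CPM ± 231 and 1206 ± 222 (SD, n = 3) at P0 and P10, both above P6.

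Calml4, a light chain of the adhesion complex that links microvillus tips, stood at 1130, 1117 and 1033 CPM at P3 and at 439.5 and 559 at P6 (-1.13, adjusted p = 5.41e-05). S100g, the calcium-binding calbindin of enterocytes, stood at 255, 290.1 and 277 CPM and then at 139 and 71.6 (-1.38, adjusted p = 0.00197). Their P6 values lay below all P3 values. Calml4 was not held with P3 and P6 villus libraries alone in the fit, and S100g not without P3 library 3 or with scaling after the offsets.

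**Figure D3:**
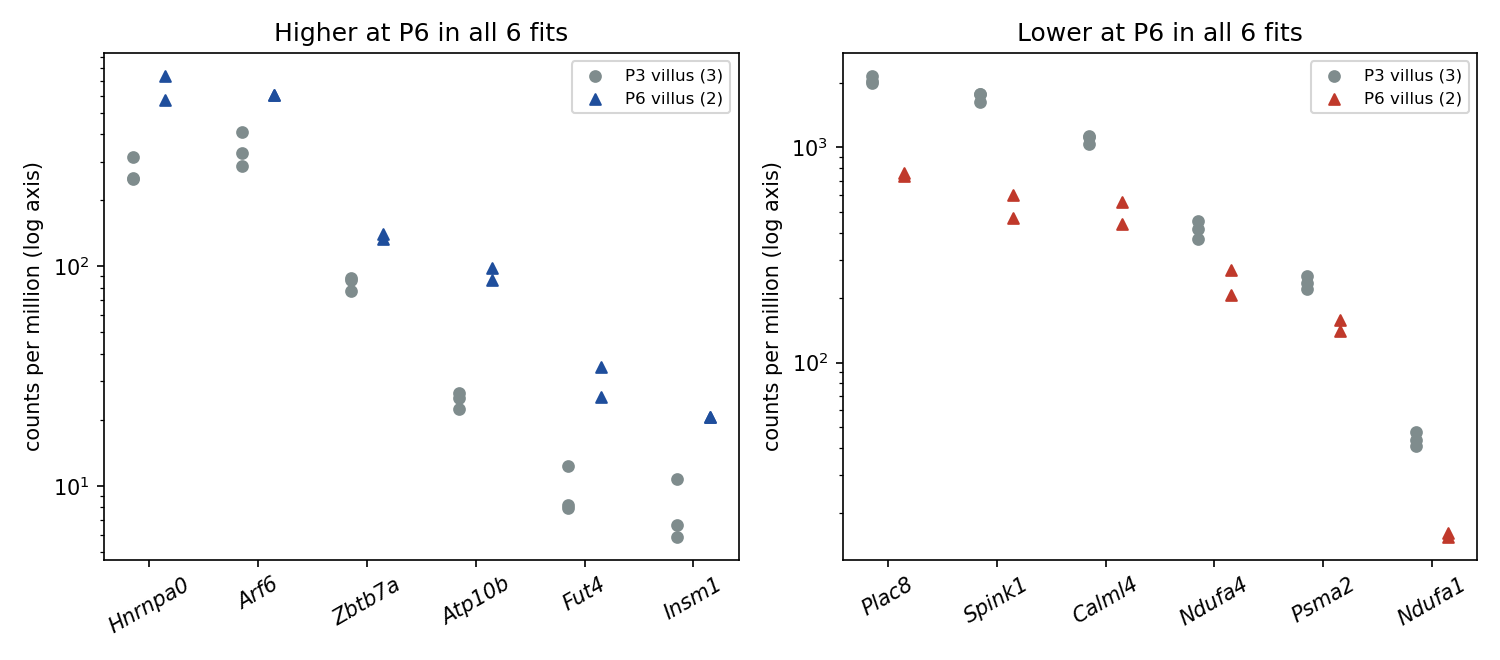
CPM on a log axis of 6 genes higher (left) and 6 genes lower (right) at P6 in all 6 fits. Grey circles are the 3 P3 villus libraries and coloured triangles the 2 P6 villus libraries; the ages do not overlap in these 12 genes, as in 31.6% (higher) and 34.7% (lower) of all tested genes, for example in Hnrnpa0 with 250.3 to 315 CPM at P3 and 573 and 737 at P6.

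The enterocyte identity list had 8 of 14 members lower (57.1%) and 1 higher (7.14%), with a median of -0.98, and 0 held. Over all genes 26.4% were lower, 21.7% higher and 7.84% held lower. Of its 8 GC-rich members, Vil1 and Alpi among them, 7 were lower, in a class where 3183 of 5887 genes were lower. Of its 5 GC-poor members 1 was lower. Vil1, which bundles the actin of microvilli, stood at 1135, 880 and 1149 CPM at P3 and at 433 and 629 at P6 (-0.99, adjusted p = 0.000662), and intestinal alkaline phosphatase, Alpi, at 1169, 861 and 1167 and then at 245 and 434 (-1.65, adjusted p = 0.00566). The lactase gene Lct, at 2413, 2053 and 2679 CPM and then at 926 and 1510, was not called (-0.97, adjusted p = 0.104). In each of the 3 genes both P6 values lay below the P3 values. Alpi passed neither with the offsets (-0.84, adjusted p = 0.13) nor with P6 library 2 alone (-1.40, adjusted p = 0.0924). The 1 member called higher was Cdh17, an adhesion protein of intestinal epithelium (0.52, adjusted p = 0.0246; -0.15 and not called with the offsets). From a list of adult-type enterocyte genes, sucrase-isomaltase, Sis, a sugar-splitting enzyme that becomes abundant at weaning, was called higher too, with 19.6, 40.5 and 17.7 CPM at P3 and 65.97 and 46.1 at P6 (1.11, adjusted p = 0.044). It is GC-poor (40.5%), had a log2 change of -0.21 with the offsets and was not called with either P6 library alone (1.29, adjusted p = 0.0669, and 0.74, adjusted p = 0.342). Mgam, the related maltase, which is also GC-poor (46.9%), stood at 441, 488 and 417 CPM and then at 847 and 791.5 (0.87, adjusted p = 0.00107), and did not pass with the offsets (0.06, adjusted p = 0.845).

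The GC-poor fatty acid binding proteins, which carry absorbed fatty acids inside the enterocyte, were lower too. Fabp2 stood at 16730, 16730 and 12060 CPM at P3 and at 6012 and 7172 at P6 (-1.20, adjusted p = 0.0213), and Fabp1 at 7158, 5390 and 5677 and then at 1160 and 2112 (-1.89, adjusted p = 0.00472). The ages did not overlap in either gene. Neither was held: with P6 library 2 alone Fabp1 had an adjusted p of 0.082 (-1.63) and Fabp2 of 0.128 (-1.18), and Fabp2 also missed with P6 library 1 alone (-1.41, adjusted p = 0.0576) and without P3 library 1 (-1.13, adjusted p = 0.0515).

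Lipid absorption and chylomicron genes had 22 of 35 members lower and 1 higher, with a median of -1.20. In all, 3 were held, 8.57% against 7.84% of all genes. This count was 10 with P3 and P6 villus libraries alone in the fit, where 517 genes in all were held lower. It was 1 without P3 library 1 or 3. In the GC-poor class 2 of 11 listed genes were lower and 1 higher, against 258 lower and 2625 higher of all 5583 genes of that class. Pla2g12b, a secreted phospholipase homologue needed for lipoprotein lipidation, stood at 69.6, 47.6 and 66.6 CPM at P3 and at 11.3 and 15.4 at P6 (-2.20, adjusted p = 8.79e-06), and was held under every setting. Slc27a4, a fatty acid transport protein, stood at 331, 194 and 379.5 CPM and then at 51.9 and 80.7 (-2.18, adjusted p = 0.000154); it is GC-rich and P3 library 2 was again the lowest at P3. Apob, the structural protein of chylomicrons, stood at 9117, 9760 and 7642 CPM and then at 11700 and 17690, and was not called (0.73, adjusted p = 0.135; -0.43 with the offsets). Mttp, which loads lipid onto Apob, overlapped between ages, with 5874, 7295 and 5050 CPM and then 4448 and 6438 (-0.16, adjusted p = 0.759).

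For milk protein uptake, 8 of 20 suckling-type enterocyte genes were lower and 1 higher, with 3 held lower (15%), and 21 of 40 lysosome genes were lower and 3 higher, with 4 held lower (10%). Over all genes 26.4% were lower and 7.84% held lower. With both P6 libraries kept, the held count of the lysosome list ran from 1, as without P3 library 3, to 8, with offsets from coding sequence. That of the suckling-type list ran from 0, with P3 and P6 libraries of both populations alone in the fit, to 5, with the villus groups alone. Mamdc4, an apical endocytic receptor of the neonatal enterocyte, stood at 1619, 880.2 and 2103 CPM at P3 and at 223 and 336 at P6 (-2.46, adjusted p = 0.000184). Amn, the partner of cubilin at the apical surface, stood at 58.2, 35.8 and 72.1 CPM and then at 4.50 and 9.61 (-2.98, adjusted p = 4.66e-05). Both are GC-rich (58.1% and 62.9%) and both were lowest at P3 in library 2. Fcgrt, the neonatal Fc receptor that carries maternal antibody, stood at 2193, 1299 and 2760 CPM and then at 227 and 453 (-2.62, adjusted p = 0.00315). It missed the threshold with the offsets (-1.54, adjusted p = 0.0572) and with P6 library 2 alone (-2.32, adjusted p = 0.0634).

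In the lysosome list Cd63, a membrane protein of late endosomes, stood at 227, 179.8 and 246 CPM at P3 and at 78.7 and 96.7 at P6 (-1.31, adjusted p = 3.7e-05), and was held under every setting. Npc2, which hands on cholesterol inside lysosomes, stood at 254, 194 and 288 CPM and then at 114 and 111 (-1.12, adjusted p = 0.00142). Ctsb, a lysosomal protease, stood at 1957, 1704 and 2067 CPM and then at 815 and 1259 (-0.88, adjusted p = 0.0201), and lost the call with P6 library 2 alone (-0.71, adjusted p = 0.188) and without P3 library 3 (-0.82, adjusted p = 0.0541). The P6 values of both lay below all P3 values, while Lamp1, the main lysosomal membrane protein, was not called (-0.27, adjusted p = 0.387). Of the 10 GC-poor suckling-type genes 0 were lower and 1 was higher, against 258 lower and 2625 higher of all 5583 GC-poor genes. The brush border list of microvillus structure had 13 of 23 members lower, 3 higher and 4 held lower (17.4%, against 7.84% of all genes); of these Ush1c, the scaffold of the tip-link complex, stood at 127, 88.4 and 155 CPM at P3 and at 27.9 and 38.6 at P6 (-1.89, adjusted p = 1.71e-05) and was held under every setting. Myo7b, the myosin of that complex, stood at 349, 244 and 391 CPM and then at 78.5 and 137 (-1.61, adjusted p = 0.000158), and was not held with fewer libraries in the fit.

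Fatty acid oxidation and ketogenesis had 13 of 29 tested genes lower and 1 higher, against 26.4% lower and 21.7% higher of all genes. Of its 8 GC-poor genes 0 were called in either direction, against 258 lower and 2625 higher of all 5583 GC-poor genes. In the whole list 4 were held lower (13.8%, against 7.84% of all genes). The held count was 8 with GC offsets alone or with offsets from coding sequence. Acadvl, the first enzyme of long-chain fatty acid oxidation, stood at 259, 196 and 269 CPM and then at 53.1 and 76.2 (-1.90, adjusted p = 7.15e-05). Its P6 values lay below all P3 values, with P3 library 2 the lowest at P3.

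Among 28 enterocyte transcription factors 12 were lower (42.9%) and 6 higher (21.4%), against 26.4% and 21.7% of all genes. The median was -0.47, and 0.06 with the offsets. Held were 1 higher (3.57%, against 0.345% of all genes) and 4 lower (14.3%, against 7.84%). All 12 lower ones were among the 19 GC-rich members, a class in which 3183 of 5887 genes were lower. Cdx1, a homeobox factor of intestinal identity with a coding GC content of 68.5%, stood at 55.4, 43.4 and 88.1 CPM and then at 9.98 and 14.1 (-2.37, adjusted p = 1.59e-05), and was held under every setting. In this gene the P3 libraries stand in the order of their GC content. Hnf4a, a nuclear receptor of enterocytes, stood at 674, 623 and 623 CPM and then at 425 and 514 (-0.45, adjusted p = 0.0333); the call was lost with the offsets (-0.22, adjusted p = 0.279) and with P6 library 2 alone (-0.42, adjusted p = 0.135), and the sign turned with GC offsets alone (0.07). Hnf4g, a GC-poor nuclear receptor of enterocytes, stood at 192, 213 and 127 CPM and then at 548 and 417 (1.44, adjusted p = 0.00129), and missed the threshold with the offsets (0.67, adjusted p = 0.0619). Smad4, the shared signal carrier of the TGF-beta and BMP pathways, was named after its values were seen; it stood at 139.8, 172 and 118 CPM and then at 299 and 272 (0.99, adjusted p = 0.000525; 0.78 with the offsets). Its ages did not overlap, and it was held, but not with the replicate block, with P3 and P6 villus libraries alone in the fit, or without P3 library 1 or 3.

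Fewer genes were higher at P6 in all 6 fits. Of the 57, 18 are gene models named only by a Gm, Rik or clone identifier, and 19 of the 50 with a transcript model have a single exon (38%), against 12.4% of all tested genes and 2.1% of the genes held lower. Above a mean log2 CPM of 3 these shares were 16.7%, 2.29% and 0.65%. Reads outside genes, given above, were also a larger share in the P6 libraries, and their part in these counts was not tested.

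Hnrnpa0, an RNA-binding protein of the heterogeneous nuclear ribonucleoproteins encoded in a single exon, stood at 253, 315 and 250.3 CPM at P3 and at 737 and 573 at P6 (log2 change 1.26, SE 0.202, adjusted p = 6.43e-05; 2.06 with the offsets). It was 1.36 with P6 library 1 alone and 0.97 with library 2 alone, and was held under every setting and with each library left out. Its P0 and P10 villus means were 271 CPM ± 56.9 and 269 ± 39.7 (SD, n = 3), which leaves P6 as the highest of the 4 ages. Arf6, a small GTPase of membrane traffic, stood at 328, 408 and 285 CPM at P3 and at 605 and 604 at P6 (0.83, adjusted p = 0.00134; 2.14 with the offsets). Zbtb7a, a zinc finger transcription factor, stood at 86.9, 88.8 and 77.4 CPM and then at 133 and 140.0 (0.70, adjusted p = 0.000566; 1.27 with the offsets). In all 3 genes the ages did not overlap. Arf6 was not held without P3 library 3, with the replicate block or with fewer libraries in the fit, and Zbtb7a not without the filter on low counts or with P3 and P6 villus libraries alone.

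Insm1, a zinc finger factor of endocrine cell differentiation also encoded in a single exon, stood at 5.87, 10.7 and 6.63 CPM at P3 and at 20.7 and 20.6 at P6 (1.42, SE 0.273, adjusted p = 0.000332; 2.37 with the offsets). It was not held with P3 and P6 villus libraries alone, nor with offsets from coding sequence, chosen after seeing the data (0.60, adjusted p = 0.0941). It was the only one of 27 enteroendocrine genes held in either direction, against 0.345% held higher and 7.84% held lower of all genes. In the list 5 were called higher (18.5%) and 8 lower (29.6%), near the 21.7% and 26.4% of all genes. The list summed to 824 to 1220 CPM at P3 and 853 and 868 at P6. Chga, a granule protein of endocrine cells, went the other way, with 27.2, 45.3 and 42.7 CPM at P3 and 11.1 and 18.4 at P6 (-1.38, adjusted p = 0.0364), and did not pass with the offsets (-0.17, adjusted p = 0.832) or with any 1 library left out other than P3 library 1.

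Fut4, which adds fucose to cell surface glycans, stood at 7.92, 12.3 and 8.17 CPM at P3 and at 34.7 and 25.4 at P6 (1.67, adjusted p = 0.000192). Mtcp1 stood at 6.03, 10.1 and 4.82 CPM and then at 19.2 and 21.6 (1.55, adjusted p = 0.000177), and Atp10b, a lipid flippase, at 22.5, 26.6 and 25.2 CPM and then at 98.8 and 86.4 (1.90, adjusted p = 2.63e-05). The ages did not overlap in these genes, which were held under every setting, although Fut4 was not held without P3 library 1 or 3. The progesterone receptor gene Pgr, near the limit of detection at P3 with 0, 0.307 and 0.105 CPM, stood at 5.30 and 2.99 at P6 (4.99, SE 0.657, adjusted p = 1.74e-05). It was also at 3.63 CPM ± 0.81 (SD, n = 3) in P10 villus and was held under every setting. Atp10b and Pgr were named after their values were seen.

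Further genes named by size of change were held only under part of the settings. Fam120c, at 8.00, 9.10 and 6.07 CPM and then at 45.3 and 28.2 (2.25), Zc3h11a, at 20.1, 28.5 and 14.1 and then at 105.5 and 95.8 (2.27), and A2m, at 7.79, 14.6 and 9.21 and then at 36.6 and 37.7 (1.82), were not held with the replicate block, without the filter on low counts, or without P3 library 1 or 3. Tox3, an HMG-box factor, at 8.00, 13.95 and 8.62 CPM and then at 32.4 and 24.1 (1.48), was not held with fewer libraries in the fit. In these 4 genes every P6 value exceeded every P3 value, as in 31.6% of all tested genes.

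In these libraries, sorted as CD44-negative, 11 of 22 genes of intestinal stem cells were called higher at P6 (50%, against 21.7% of all genes) and 1 lower, with a median log2 change of 0.90. Held higher was 1 (4.55%, against 0.345% of all genes), and 0 with the replicate block or without any 1 of the P3 libraries. The list summed to 1300 to 2170 CPM at P3 and to 5660 and 4390 in P6 libraries 1 and 2. Most of this sum came from Olfm4, given below, and Slc12a2, named after its values were seen. Slc12a2 stood at 410.8, 974.3 and 936.1 CPM at P3 and at 2006 and 2369 at P6. Both genes are GC-poor, and neither passed with the offsets (Slc12a2 0.42, adjusted p = 0.527). With the offsets 8 of the 22 genes were higher and 2 lower, with a median of 0.76. Lgr5, the receptor that marks crypt base stem cells, stood at 24.9, 34.2 and 41.8 CPM at P3 and at 155.5 and 87.0 at P6 (1.85, adjusted p = 0.000341; 1.16 and adjusted p = 0.0142 with the offsets). With the offsets and P6 library 2 alone it did not pass (0.67, adjusted p = 0.296). Olfm4, a secreted stem cell marker, stood at 345, 556 and 629 CPM and then at 2287 and 1087 (1.73, adjusted p = 0.00253; 0.82 and adjusted p = 0.121 with the offsets). Both markers were highest in P6 library 1.

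The sort gene Cd44 rose with them as deposited, from 10.3, 13.03 and 17.7 CPM at P3 to 53.7 and 24.8 at P6 (1.52, adjusted p = 0.00322), and did not pass with the offsets (0.44, adjusted p = 0.382) or with P6 library 2 alone (0.75, adjusted p = 0.229). With P6 library 2 alone 6 of the 22 stem cell genes were higher, in place of 11. Among the 11 GC-rich members, for which the trend runs downward, Rnf43 and Znrf3 were called higher and Ephb3 lower, against 3.8% higher in all GC-rich genes. Sox9, Rnf43 and Msi1 were picked after their values were seen. Sox9, a stem and progenitor cell factor, stood at 67.96, 62.2 and 74.8 CPM and then at 229 and 129 (1.39, adjusted p = 7.04e-05), and Rnf43, a ligase that removes Wnt receptors, stood at 45.2, 41.04 and 53.6 and then at 94.5 and 60.9 (0.74, adjusted p = 0.00773). Rnf43 was not called with P6 library 2 alone (0.28, adjusted p = 0.419) or without P3 library 2 (0.54, adjusted p = 0.0594). Msi1, an RNA-binding protein of stem cells, stood at 9.39, 10.1 and 16.3 CPM and then at 22.2 and 13.9, with overlap between ages; it missed the threshold as deposited (0.59, adjusted p = 0.0511) and passed with the offsets (1.64, adjusted p = 0.000138).

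Znrf3, the companion of Rnf43, was the only member held higher, with 11.6, 14.8 and 14.5 CPM at P3 and 33.3 and 33.4 at P6 (1.29, adjusted p = 0.000617). It was not held with any 1 P3 library left out or with the replicate block. Ephb3, an ephrin receptor of crypt cells, was the only one held lower, with 2.83, 1.43 and 3.91 CPM and then 0.707 and 0.491 (-2.19, adjusted p = 0.000107). The part of crypt cells that passed the sort in these values was not tested.

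**Figure D4:**
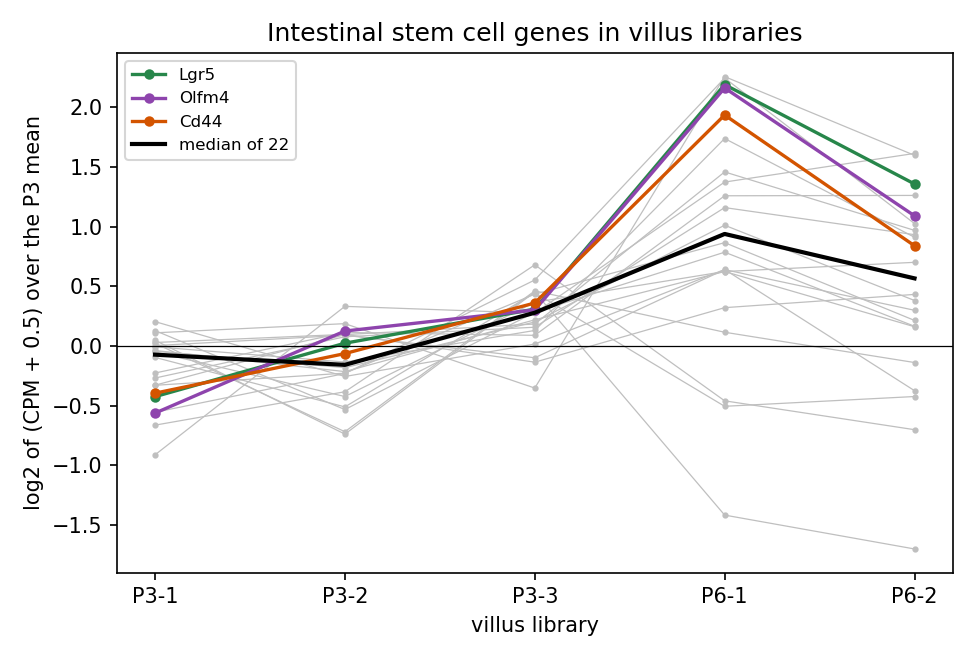
Log2 of CPM plus 0.5 in each villus library relative to the P3 mean (vertical axis) for the 22 intestinal stem cell genes. Grey lines are genes, coloured lines Lgr5, Olfm4 and Cd44, and the black line the median, which was 0.94 in P6 library 1 and 0.57 in P6 library 2.

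Genes of other cell types of the villus and crypt were called in both directions. Goblet cell genes summed to 3360 to 4120 CPM at P3 and 3000 to 3050 at P6, with 4 of 23 higher and 6 lower, against 21.7% higher and 26.4% lower of all genes. With the offsets 6 were higher and 3 lower, and without P6 library 1 the counts were 0 and 4. Of 8 tuft cell genes 3 were lower and 0 higher, with a median of -0.99, at summed levels of 3.17 to 4.85 CPM at P3 and 1.32 to 1.77 at P6. Tff3, a goblet cell trefoil peptide, stood at 345, 214 and 500.2 CPM and then at 25.7 and 38.3 (-3.46, adjusted p = 3.02e-05) and was held under every setting. Its values fall in the order of the GC content of the libraries. The GC-poorer goblet gene Clca1, at 712, 727 and 681 CPM and then at 784 and 818, was not called (0.18, adjusted p = 0.638). Paneth cell genes summed to 3270 to 4690 and 3540 to 5480 CPM, with 3 of 17 tested genes higher and 1 lower. Lyz1, the Paneth cell lysozyme, stood at 15.3, 9.66 and 9.84 CPM and then at 40.1 and 40.3 (1.79, adjusted p = 0.00305). Of 43 cell cycle genes 19 were higher (44.2%) and 13 lower (30.2%). All 19 higher ones were among the 26 GC-poor members, a class in which 2625 of 5583 genes were higher. The list's median was 0.22 as deposited and -0.03 with the offsets. Top2a, the topoisomerase of dividing cells, stood at 169.7, 171 and 179 CPM and then at 444 and 357 (1.21, adjusted p = 0.000356), and did not pass with the offsets (0.09, adjusted p = 0.784).

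Reg3b and Reg3g, secreted lectins that act on bacteria, differed between the P6 libraries more than between ages. Reg3b stood at 207, 627 and 205 CPM at P3 and at 144 and 2953 at P6 (2.16, adjusted p = 0.174), and Reg3g at 63.5, 197 and 76.9 and then at 44.2 and 1152 (2.41, adjusted p = 0.103). P6 library 1 was the lowest of the 5 libraries and library 2 the highest for both genes.

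The crypt libraries of the same ages had nearly the same shift. Mean GC content was 46.57% ± 0.735 (SD, n = 3) in P3 crypt and 44.77% ± 0.18 (SD, n = 3) in P6 crypt. Across the 16535 genes the log2 changes in villus and crypt had a Spearman correlation of 0.874, and of 0.756 with the offsets. All 1353 held genes had the same sign in crypt. The share of all tested genes with the same sign was not counted, so this is not to be read as a trait of the held genes. The difference between the villus and the crypt change was called for 0 genes by edgeR (272 genes, 1.64%, at an unadjusted p below 0.05) and for 0 by DESeq2 (294, 1.78%), with a smallest adjusted p of 1. With the offsets the calls were 0 as well (370 genes, 2.24%, unadjusted). In each of these fits fewer genes fell below 0.05 than that level would give with no difference. The 0 calls therefore do not show that the changes in villus and crypt were equal. As a description, the villus change lay below the crypt change in 1266 of the 1296 genes held lower (median difference -0.36) and above it in 53 of the 57 held higher (median 0.37), against 51.5% of all genes below. These genes were selected on the villus change, so such a direction is in part set by the choice.

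**Figure D5:**
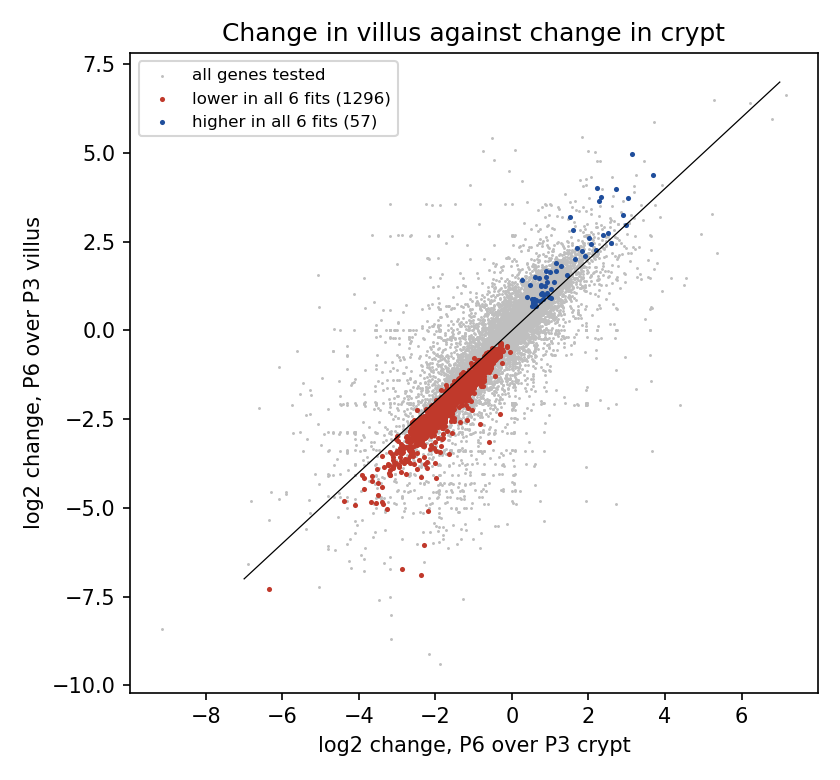
Log2 change from P3 to P6 in villus (vertical axis) against the same change in crypt (horizontal axis). Grey points are all 16535 genes, red points the 1296 held lower and blue points the 57 held higher in villus. The black line marks equal changes. All coloured points have the same sign in both populations, where the changes of all genes had a Spearman correlation of 0.874.

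Within the P3 group the held genes already differed by library. P3 library 2, with the lowest GC content of the P3 libraries, was the lowest P3 library in 1184 of the 1296 genes held lower (91.4%, against 39.9% of all genes) and the highest in 44 of the 57 held higher (77.2%, against 38.6%). In 990 of the genes held lower (76.4%, against 16.6% of all genes) the 5 libraries fell in the exact order of their GC content, from P3 library 3 through P3 libraries 1 and 2 and P6 library 2 to P6 library 1. Tff3, Ush1c, Myo7b, Cd63 and Mrps16 are among these 990 genes. That P6 lies below P3 in this order is set by the choice of the genes. Of the genes held lower, 191 had P3 library 2 within 0.2 on the log2 scale of the other P3 libraries (14.7%, against 36% of all genes), among them Spink1, Plac8, Ndufa1, Uqcrh, Psma2 and S100g. What sets this order was not tested.

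At the other villus ages, P6 was the lowest of the 4 group means in 1244 of the 1296 genes held lower (96%), against 41.5% of all genes. It was the lowest in 36 of the 42 held genes of oxidative phosphorylation (85.7%). P10 lay above P6 in 1246 of the 1296 (96.1%, against 51.9% of all genes). For the 57 genes held higher, P6 was the highest of the 4 ages in 50 (87.7%, against 37.3% of all genes). The genes were chosen for a P6 level apart from P3, so these counts are set in part by the choice and are given as a description. P0 and P10 libraries have the higher GC content given above, so this pattern follows the GC content of the libraries as well.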

How the data were processed

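Gene counts of P3 and P6 villus libraries were compared within a fit of all 23 libraries. The authors deposited raw read counts for each gene symbol; HTSeq, STAR and Trim Galore and the build mm9 are named, in no order, by the submitters' processing notes, without versions. Strand setting and treatment of multiply aligned reads are not given in the sources used here. Each library lists 47593 symbols and 5 summary lines, left out of totals and tests. In the 5 libraries reads outside genes made up 7.62% to 13.3% and ambiguous reads 0.601% to 0.690%. The files hold counts without molecular identifiers, so depth bounds counting error only.

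Genes were kept by filterByExpr (minimum count 10, minimum total 15), scaled by TMM (factors 0.734 to 1.31) and tested with edgeR 4.0.16 (R 4.3.3) by a robust quasi-likelihood F test with a coefficient per group (15 residual degrees of freedom, common dispersion 0.0622), with Benjamini-Hochberg adjustment over all 16535 genes and a threshold of 0.05. CPM are counts scaled to 1000000 per TMM-scaled library. Mean log2 CPM, the correlations between libraries and the offsets use a prior count of 2. The log2 changes come from edgeR's fit at its default prior count. Offsets were spline trends (5 degrees of freedom) on GC content and log length of the longest transcript in GENCODE M21 (GRCm38), matched for 98.75% of tested genes. No coordinates are given, since the build differs from that of the counts. GC-poor and GC-rich mean below or above the medians of both transcript and coding GC content. A single P6 library was assumed to vary like the other groups.

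The members, the 43 gene lists and the tests were chosen with earlier results of these data known. Among held genes whose mean log2 CPM was 3 or more, the rule named the 10 largest changes per direction after the offsets, the 6 largest per direction against the GC trend, and the 6 largest per direction that also differed from crypt (none). From each list it named the first 2 genes and the 4 largest held changes. Epcam, Cd44, Vil1, Lct, Sis and Alpi were named whatever their values. Part of these are printed, and some genes are not reported here. The fits behind the held genes were also run on simulated counts, which were built from the fits of these data. Alternatives were DESeq2 1.42.0, its size factors in edgeR, no filter, fewer libraries in the fit, offsets for GC content alone, a replicate block, and leaving out each library in turn. Scaling after the offsets and offsets from coding sequence were chosen after seeing the data.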

Additional observations from a re-analysis of the deposited data

How the results depend on the processing

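Genes called higher at P6 (3585) numbered 949 with GC and length offsets, 1353 with GC offsets alone, 1633 with scaling after the offsets and 2028 with offsets from coding sequence. Those called lower (4368) numbered 2333 with scaling after the offsets. Held genes numbered 57 higher and 1296 lower. The higher ones numbered 119 with DESeq2, 185 with P3 and P6 libraries of both populations alone in the fit, 116 with scaling after the offsets and 291 with offsets from coding sequence. The lower ones numbered 517 with P3 and P6 villus libraries alone in the fit, 491 with P3 and P6 libraries alone, and 709 with scaling after the offsets. Of the 1296 and 57 held genes, 393 lower and 23 higher were shared with the fit of the villus groups alone.

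With each library left out in turn, higher calls ranged from 1337 to 3249, lower calls from 3047 to 4874, held higher genes from 29 to 394 and held lower genes from 825 to 2368. The count of 1337 is without P6 library 1. Held higher genes numbered 30 without P3 library 1, 29 without P3 library 3, 86 without P6 library 1 and 394 without P6 library 2. In the last 2 of these the rule keeps only fits that it already contains, so held counts in either direction cannot fall. The villus and crypt difference had 0 calls under all settings tried.

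Replicate numbers do not pair P3 with P6 animals, which have different ages. Same-numbered libraries had correlations of 0.0316 and -0.111 in their deviations from the group means. With the replicate number as a block 3362 genes were higher and 4182 lower, and held genes numbered 28 higher and 927 lower. The block with GC and length offsets gave 848 higher and 3064 lower.

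Over 86 genes and 16 settings, 1265 of 1376 values kept their side of the threshold, 73 kept their direction but lost the call, 15 gained one, and 23 changed sign with a call in at least 1 of the fits compared. Of the 1265, 40 changed sign with no call in either fit, such as Apob at -0.43 with GC and length offsets. All 23 came with offsets. mt-Nd1 was -0.73 with GC and length offsets, -1.17 with GC offsets, -0.65 with the replicate block and both offsets and -1.06 with coding offsets, and mt-Nd2 was -0.99 and -0.95 with GC and with coding offsets. Cycs was -0.87 with GC and length offsets, without or with the block, -0.91 with GC offsets and -0.71 with scaling after the offsets. Sis was -0.21 with GC and length offsets, -0.29 with the block added, -0.04 with scaling after them and -0.16 with coding offsets. Cdh17 was -0.15 with GC and length offsets, -0.18 with the block added, -0.11 with GC and -0.24 with coding offsets. Hnf4a was 0.07 with GC and 0.20 with coding offsets, Uqcrb -0.73 with GC offsets, and Ndufs1 -0.68 and Top2a -0.01 with coding offsets. The causes of these changes were not tested. With 2 P6 libraries, their number limits the precision of the comparison. Genes near 0 CPM at either age, such as Pgr, have changes that depend on edgeR's default prior count.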
